A study of Mus with 15 samples.

Results

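Interleukin-1 (IL-1) family genes and the inflammasome sensor Nlrp3 were described across RNA sequencing libraries of mouse fat and fat grafts. The 10 members were taken by gene symbol from the deposited matrix of 55471 genes: the ligands Il1a, Il1b, Il18 and Il33, the receptor antagonist Il1rn, the receptor chains Il1r1, Il1rap and Il1rl1, the decoy receptor Il1r2, and Nlrp3. Each symbol matched 1 row, and all 10 members were among the 16051 genes that passed the filter on low counts. The samples were adipose tissue of wild type C57BL/6 mice aged 7 weeks in 3 groups of 5 libraries: control tissue, grafts taken on day 3 and grafts taken on day 7. The labels name neither the fat depot nor the host of the grafts, and do not state that the 5 libraries of a group were different animals. The p-values therefore measure only the spread among libraries, which may not be the spread among animals. RNA of grafted cells and of cells that entered the graft was not told apart, and in whole tissue fewer cells of a type and less RNA per cell cannot be told apart.

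IL-1 alpha and IL-1 beta bind the receptor chain encoded by Il1r1, which then recruits the shared accessory chain encoded by Il1rap and signals through the adaptor MyD88 to NF-kB. The antagonist encoded by Il1rn occupies the same receptor without signalling, and the decoy receptor encoded by Il1r2 binds IL-1 but has no signalling domain. IL-33 uses Il1rl1, also called ST2, with the same accessory chain. IL-1 beta and IL-18 are made as precursors that caspase-1 cuts after a sensor such as NLRP3 has assembled an inflammasome, and neither cutting nor release is measured by RNA levels.

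Each library held 17109216 to 31997959 estimated counts, and mitochondrial genes took 9.01 to 14.9% of the counts in controls and 2.17 to 4.02% in grafts. All 10 adipocyte markers on the list used here fell in the grafts on both days, with a summed level of 16914 to 50554 CPM (counts scaled to library size) in controls, 2150 to 7826 CPM on day 3 and 1103 to 2480 CPM on day 7. Control 5 had the highest level of all 10 members among the 5 controls, and also the highest macrophage marker sum (4232 CPM, against 1528 to 1995 CPM in the other controls) and neutrophil marker sum (187 CPM, against 19.9 to 37.8 CPM). Day 7 graft 5 stood apart by its mesothelial marker sum, 81.1 CPM against 2.17 to 19.6 CPM in the other 14 libraries. Results that rest on these libraries are given with and without them. Changes below are log2 fold changes with their standard error (SE) from 1 limma-voom fit of the 3 groups. Calls are at an adjusted p below 0.05, with adjustment across every tested gene.

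**Figure D1:**
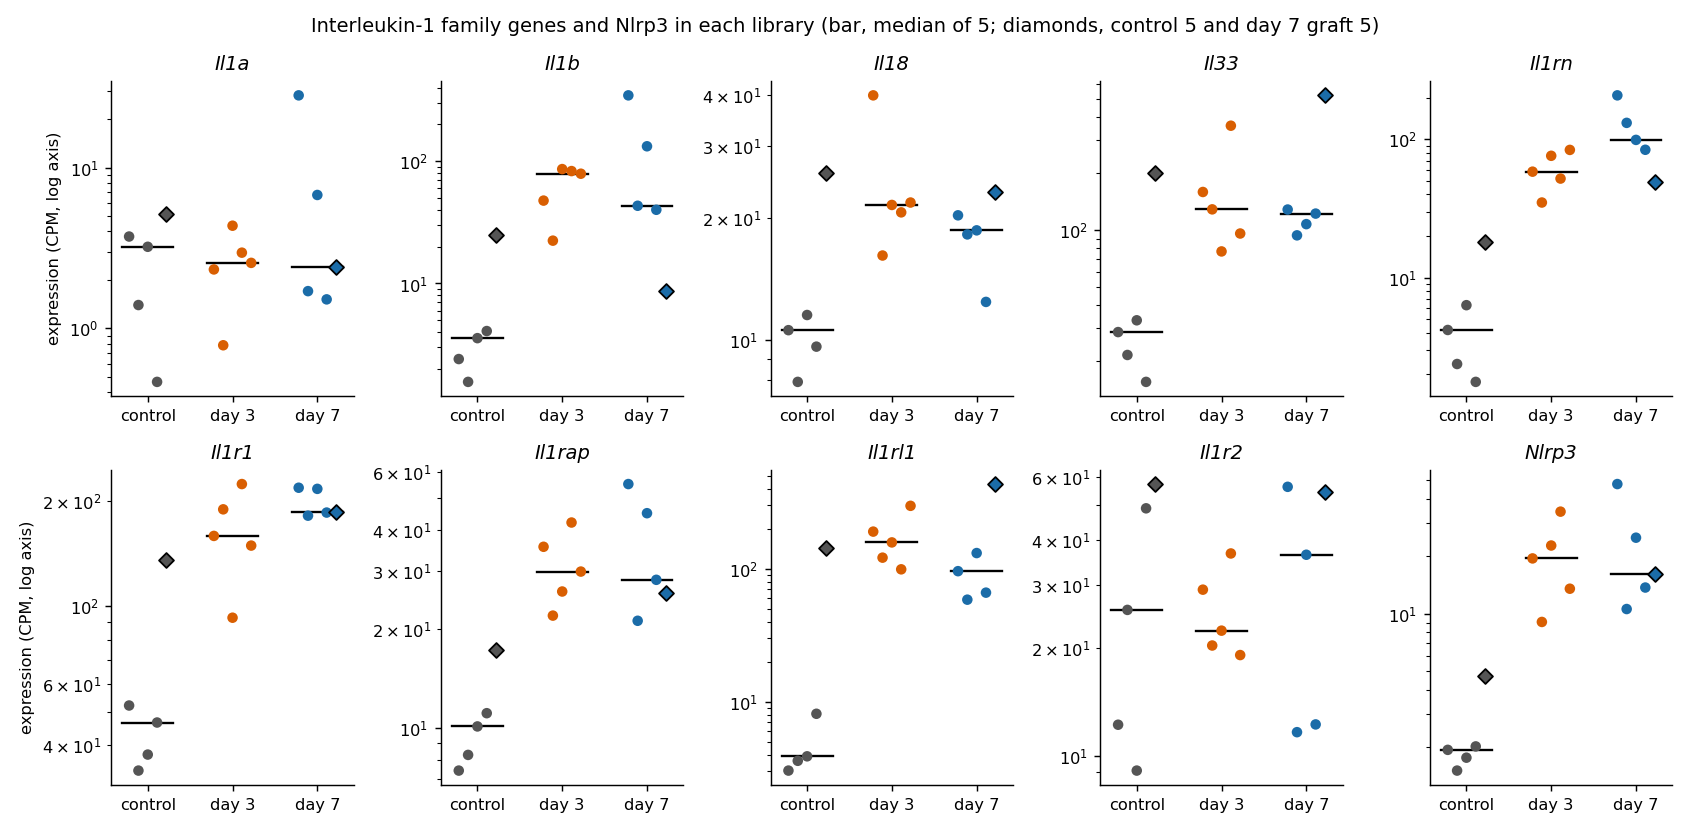
CPM of each member (log axis) in the 5 control, 5 day 3 and 5 day 7 libraries, with the median of each group as a bar and control 5 and day 7 graft 5 as diamonds. Control 5 is the highest control in all 10 panels, and the graft points of Il1rn, Il1rap and Nlrp3 lie above every control.

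On day 3, 8 of the 10 members were called higher than control and 0 were called lower, where 30.1% of all tested genes were called higher and 30.3% lower. The median change of the members was 1.74, against -0.02 over all tested genes. On day 7, 7 of the 10 were called higher and 0 lower, where 32.2% of all tested genes were called higher and 28.4% lower, and the members' median was 1.98 against 0.03. Both comparisons share the control libraries. Il1a and Il1r2 were not called on either day, and Il18 was called on day 3 only. In 3 members on day 3 and 4 on day 7 every graft exceeded every control, a pattern found upward in 20.6% and 22.7% of all tested genes and downward in 19.9% and 19.8%. Fitted on the deposited TPM (values scaled for gene length and depth), the median of all genes moved to 0.22 on day 3 and 0.33 on day 7, and the share of calls that were higher went from 49.9% to 68.0% and from 53.1% to 74.1%. Control 2 was rich in muscle genes and control 4 was poor in lymphocyte genes. Without both, 5 members were called on day 3 and 5 on day 7. The calls of Il1b and Il33 were lost on both days and that of Il18 on day 3. That fit kept control 5, the highest control in these genes (24.8 CPM Il1b, 200.5 CPM Il33 and 25.8 CPM Il18). Without control 5 instead, each of these calls was kept.

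**Figure D2:**
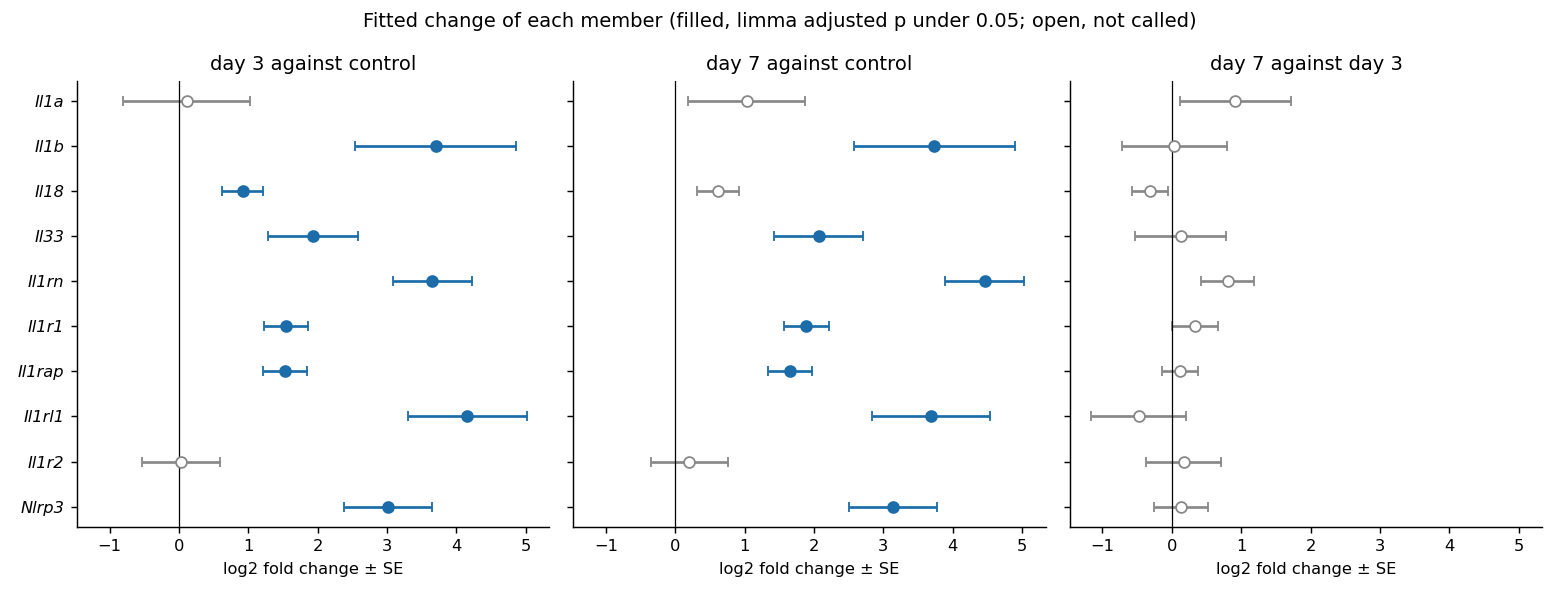
Log2 fold change ± SE of each member in the 3 comparisons, filled where the limma adjusted p is under 0.05. Filled points number 8 for day 3 against control, 7 for day 7 against control and 0 for day 7 against day 3.

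Of the 4 ligands among the members, Il1b, which encodes the secreted IL-1 of activated myeloid cells, changed most. Its level was 2.41, 1.57, 3.57, 4.08 and 24.8 CPM in controls 1 to 5. It was 47.7, 22.4, 86.3, 83.1 and 79.1 CPM in the day 3 grafts. It was 346, 43.2, 133, 40.1 and 8.73 CPM in the day 7 grafts. Control 5 lay above the lowest day 3 graft, and day 7 graft 5 lay below control 5, so the groups overlapped on both days. The change was 3.70 ± 1.16 on day 3 (limma adjusted p = 0.0127, n = 5 and 5) and 3.74 ± 1.16 on day 7 (adjusted p = 0.012). The day 7 libraries spread 39.7-fold from lowest to highest, against 3.85-fold on day 3. Without control 5 the changes were 4.34 and 4.38, and without day 7 graft 5 or day 7 graft 1 the day 7 change was 4.3998 or 3.12; each of these remained called. Without controls 2 and 4 they were 3.20 and 3.21 (adjusted p = 0.0712 and 0.07).

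Il1a encodes the other IL-1 agonist, which cells release when they are damaged. Its level was 3.72, 1.39, 3.21, 0.463 and 5.12 CPM in controls 1 to 5, 2.32, 0.783, 4.34, 2.95 and 2.55 CPM on day 3, and 28.1, 1.70, 6.75, 1.51 and 2.41 CPM on day 7. Day 7 graft 1, which also had the most Il1b, was the only library above 10 CPM. The changes were 0.11 ± 0.91 on day 3 (adjusted p = 0.923) and 1.03 ± 0.84 on day 7 (adjusted p = 0.304), and without day 7 graft 1 the latter was 0.36. Il1a and Il1b lie next to each other on the reverse strand of chromosome 2 (mm10; Il1a from 129299610 to 129309972, Il1b from 129364570 to 129371139), with no other protein-coding gene between them. Per length, Il1b stood at 1.00 to 14.1 times the TPM of Il1a in the controls and at 32.1 to 49.1 times on day 3, without overlap. On day 7 the ratio was 19.7 to 42.4 in grafts 1 to 4 and 5.63 in graft 5. That ratio was chosen after its values were seen and was not tested. The antisense gene Gm14023 overlaps Il1a and held 2 to 27 counts per library where Il1a held 11 to 752, and Il1bos overlaps Il1b with 0 to 58 counts; the libraries were stranded, but no source used here says whether counting used the strand.

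Il33 encodes a nuclear alarmin of stromal cells, mesothelium and endothelium. It stood at 28.7, 21.7, 33.1, 15.6 and 200.5 CPM in controls 1 to 5. The day 3 grafts had 159, 129, 76.9, 359 and 95.8 CPM, and the day 7 grafts 128, 93.7, 107, 122 and 519.9 CPM. Every graft exceeded controls 1 to 4, while control 5 exceeded 4 of the 5 grafts on each day. The change was 1.93 ± 0.64 on day 3 (adjusted p = 0.0176) and 2.06 ± 0.65 on day 7 (adjusted p = 0.0126). Without control 5 it was 2.56 and 2.69 (adjusted p = 0.000802 and 0.000551), and without controls 2 and 4 it was 1.26 and 1.36 (adjusted p = 0.13 and 0.103). Without day 7 graft 5 the day 7 change was 1.60 (adjusted p = 0.0363). The highest Il33 value of the series, in day 7 graft 5, came with the highest mesothelial marker sum and the lowest Il1b of the day 7 grafts. Day 7 graft 2 had the next highest mesothelial sum (19.6 CPM) and the lowest Il33 of the day 7 grafts. Day 7 grafts 1, 3 and 4 had mesothelial sums of 2.17, 3.42 and 3.64 CPM, below every control (4.12 to 6.06 CPM). Of 5 tested mesothelial markers 1 rose and 2 fell on day 3, and 2 rose and 0 fell on day 7. That graft's fibroblast and progenitor marker sum, 30785 CPM, lay within the range of the other day 7 grafts (26663 to 31663 CPM). The same sum was 1965 to 8296 CPM in controls and 13691 to 28688 CPM on day 3; of its 10 markers 6 rose and 0 fell on day 3, and 7 rose and 1 fell on day 7. Of 8 tested endothelial markers 6 rose and 0 fell on each day. Their sum was 475 to 611 CPM in controls, 487 to 1644 CPM on day 3 and 681 to 1326 CPM on day 7. The 681 CPM was in day 7 graft 5. The part of mesothelial, stromal and endothelial cells in the Il33 values was not tested.

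Il18 encodes a ligand that many cells hold as a precursor. It rose least of the members called on day 3, from 10.6, 7.89, 11.5, 9.64 and 25.8 CPM in controls 1 to 5 to 40.0, 16.2, 21.5, 20.6 and 21.8 CPM. The change was 0.92 ± 0.30 (adjusted p = 0.0149) and without controls 2 and 4 it was 0.61 (adjusted p = 0.128). On day 7 the grafts had 20.3, 18.2, 18.6, 12.4 and 23.1 CPM, a change of 0.61 ± 0.30 (adjusted p = 0.0943). Control 5 exceeded every day 7 graft, and without it the day 7 change was 0.89 and was called (adjusted p = 0.0126). Bco2 overlaps Il18 on the opposite strand and held 41 to 188 counts per library, where Il18 held 136 to 1000.

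The antagonist gene Il1rn had the lowest adjusted p of the 10 members on both days. It stood at 4.19, 2.38, 6.33, 1.77 and 18.0 CPM in controls 1 to 5. It was 58.3, 34.9, 75.9, 52.0 and 83.7 CPM on day 3, and 207, 131, 98.9, 83.9 and 48.9 CPM on day 7. Every graft exceeded every control, including control 5. The change was 3.66 ± 0.57 on day 3 (adjusted p = 7.63e-05) and 4.46 ± 0.57 on day 7 (adjusted p = 1.32e-05). Il1rn kept its call on both days under all 28 alternative settings. The mean log2 ratio of Il1rn to Il1b within a library was 0.09 ± 0.78 (SD, n = 5) in controls, 0.03 ± 0.49 on day 3 and 0.78 ± 1.34 on day 7. The differences from control were -0.06 (two-sided exact permutation test, adjusted p = 0.889 over 9 ratio comparisons) and 0.69 (adjusted p = 0.488). Without day 7 graft 5 the day 7 difference was 0.28. On day 7 the ratio ran from -0.74 in graft 1 to 2.42 in graft 5.

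The receptor genes rose as well. Il1r1 encodes the signalling receptor for IL-1, and it stood at 52.0, 33.9, 37.7, 46.5 and 135 CPM in controls 1 to 5. It was 159, 189, 92.7, 223 and 149 CPM on day 3 and 218, 181, 216, 185 and 186 CPM on day 7. The day 7 grafts were the most even of any member in any group, 1.20-fold from lowest to highest, and all exceeded control 5. The change was 1.55 ± 0.32 on day 3 (adjusted p = 0.000751) and 1.89 ± 0.32 on day 7 (adjusted p = 0.000164). Il1rap, the accessory chain that IL-1 and IL-33 share, was 7.44 to 17.2 CPM in controls (median 10.1), 22.0 to 42.1 CPM on day 3 (median 29.9) and 21.2 to 55.2 CPM on day 7 (median 28.2). Its grafts and controls did not overlap, and it rose by 1.53 ± 0.32 (adjusted p = 0.000794) and 1.65 ± 0.32 (adjusted p = 0.000411).

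Il1rl1 encodes ST2, the receptor for IL-33. It was at 3.04, 3.60, 3.89, 8.12 and 144 CPM in controls 1 to 5. It reached 190.3, 121, 158, 99.1 and 297 CPM on day 3 and 95.9, 58.6, 131, 66.2 and 434 CPM on day 7. All 10 grafts exceeded controls 1 to 4, and control 5 lay within the range of both graft groups. The change was 4.16 ± 0.86 on day 3 (adjusted p = 0.000752) and 3.69 ± 0.85 on day 7 (adjusted p = 0.00171). Without control 5 it was 5.19 (adjusted p = 5.18e-05) and 4.71 (adjusted p = 0.000106), and without day 7 graft 5 the day 7 change was 3.19 (adjusted p = 0.003). ST2 is best known on mast cells, regulatory T cells and type 2 innate lymphoid cells. Of 8 tested markers of regulatory T cells and type 2 lymphoid cells, 7 fell and 1 rose on day 3, and 4 fell and 1 rose on day 7. The sum of that list was 11.5 to 170 CPM in controls, 3.31 to 5.64 CPM on day 3 and 4.48 to 9.44 CPM on day 7. The 11.5 CPM was in control 4, which also had the lowest B cell sum of the controls (153 CPM, others 1176 to 1959 CPM). Of 7 tested lymph node structure markers 6 fell and 1 rose on each day. The part of lymph node RNA of the controls in these sums was not tested. Foxp3, the regulator that defines regulatory T cells, was at most 0.288 CPM on day 3 and 1.09 CPM on day 7. Of 6 tested mast cell and basophil markers, 1 rose (Kit) and 1 fell (Mcpt4) on day 3, and 1 rose and 4 fell on day 7. The sum of that list was 47.3 to 95.8 CPM in controls, 73.1 to 193 CPM on day 3 and 41.4 to 95.7 CPM on day 7. Mcpt8, a basophil protease, was at 0 in every control but not throughout either graft group. Of 10 fibroblast and progenitor markers 6 rose and 0 fell on day 3, and 7 rose and 1 fell on day 7. All 12 macrophage markers rose on both days, with a sum of 5693 to 12668 CPM on day 3 and 10110 to 14814 CPM on day 7, led by Lyz2 and Mrc1. The part of each cell type in the rise of Il1rl1 was not tested.

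The decoy receptor gene Il1r2 was not called in any comparison. It ran at 12.2, 25.5, 9.09, 49.1 and 57.4 CPM in controls 1 to 5, 29.1, 20.3, 22.4, 36.7 and 19.1 CPM on day 3, and 56.4, 11.6, 36.4, 12.2 and 54.5 CPM on day 7. The controls themselves spread 6.31-fold, more than the graft groups. The changes were 0.03 ± 0.56 (adjusted p = 0.966) and 0.20 ± 0.56 (adjusted p = 0.768), and their direction turned in several alternative settings. The log2 ratio of decoy to signalling receptor was -1.12 ± 0.95 (SD, n = 5) in controls, -2.63 ± 0.45 on day 3 and -2.81 ± 1.03 on day 7. The differences were -1.51 (exact permutation p = 0.0159) and -1.69 (exact permutation p = 0.0476), and neither passed adjustment over the 9 comparisons (adjusted p = 0.107 for both). With 5 against 5 libraries the unadjusted permutation p cannot go below 0.00794. A single comparison at that floor would not pass the adjustment over 9 either. The log2 ratio of Il1rl1 to Il33 was -1.96 ± 1.19 in controls, 0.20 ± 1.33 on day 3 and -0.39 ± 0.45 on day 7. Its differences of 2.15 (exact permutation p = 0.0397) and 1.57 (exact permutation p = 0.0317) also missed the adjusted threshold (adjusted p = 0.107 for both).

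**Figure D3:**
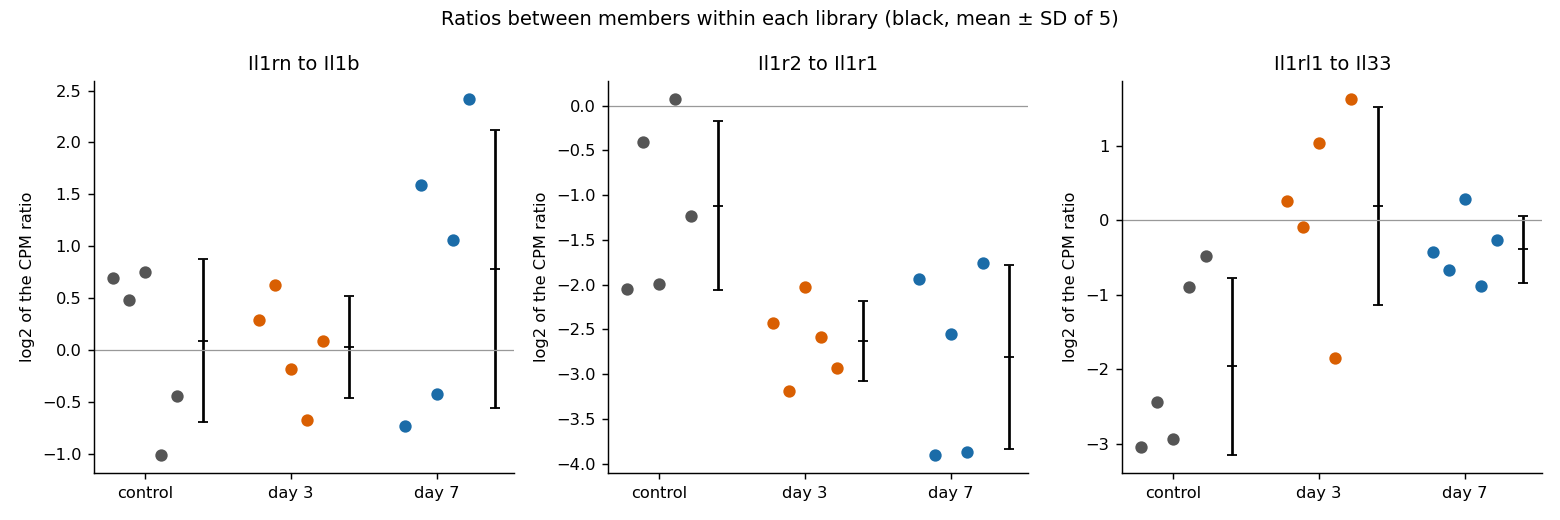
Log2 ratio of CPM within each library for Il1rn to Il1b, Il1r2 to Il1r1 and Il1rl1 to Il33, with points for the 5 libraries of each group and the mean ± SD in black. The antagonist-to-ligand ratio has its mean at 0.09 in controls and 0.03 on day 3 and spreads from -0.74 to 2.42 on day 7, and the decoy-to-receptor ratio has its mean at -1.12 in controls and at -2.63 and -2.81 in grafts.

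Nlrp3, the sensor that responds to crystals, potassium loss and extracellular ATP, was low in every control, at 1.94, 1.51, 1.76, 2.02 and 4.74 CPM. It was 19.5, 9.07, 22.8, 34.3 and 13.5 CPM on day 3 and 47.9, 10.6, 25.1, 13.7 and 16.1 CPM on day 7. Every graft exceeded every control. The change was 3.01 ± 0.64 on day 3 (adjusted p = 0.000926) and 3.14 ± 0.63 on day 7 (adjusted p = 0.000614). Of 10 tested neutrophil markers, 5 rose and 1 fell on day 3, and 5 rose and 0 fell on day 7, led by S100a9 and Csf3r; their sum was 78.4 to 460 CPM on day 3 and 156 to 941 CPM on day 7. Without controls 2 and 4, 2 of these markers rose and 1 fell on day 3, and 3 rose on day 7. Day 7 graft 1 had the highest neutrophil sum and the highest Il1b, Il1a and Nlrp3 of all 15 libraries. Day 7 graft 5 had more neutrophil marker RNA (365 CPM) than day 7 grafts 2 and 4 (159 and 156 CPM) and less Il1b. Of 8 tested monocyte markers 6 rose and 1 fell on each day. Their sum was 928 to 2041 CPM in controls, 4482 to 8125 CPM on day 3 and 5670 to 9012 CPM on day 7. Day 7 graft 5, with the lowest Il1b of the grafts, had the highest monocyte sum (9012 CPM) and macrophage sum (14814 CPM) of the series. The part of neutrophils, monocytes and macrophages in these values was not tested.

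**Figure D4:**
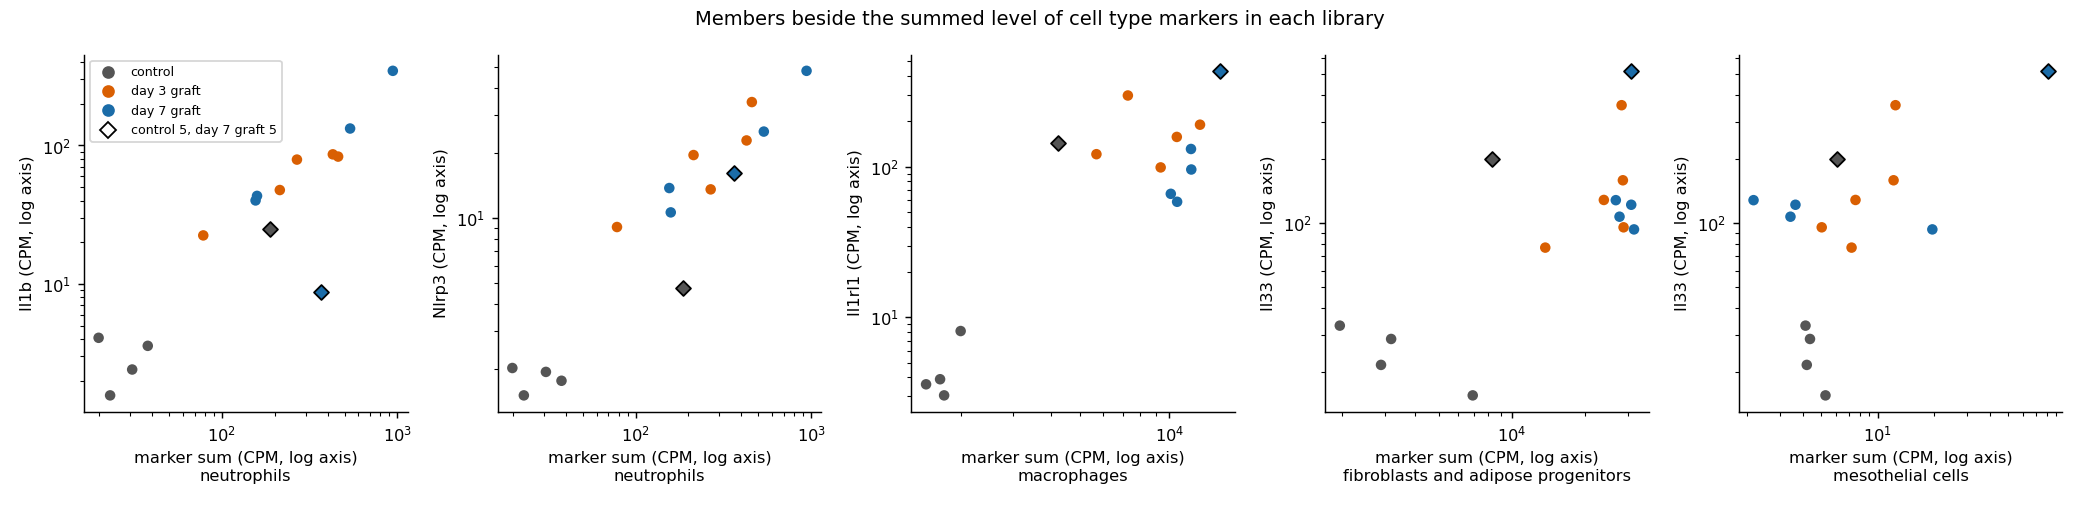
CPM of Il1b, Nlrp3, Il1rl1 and Il33 (log axes) against the summed CPM of markers of neutrophils, macrophages, fibroblasts and adipose progenitors, or mesothelial cells, 1 point per library. Day 7 graft 1, at 941 CPM of neutrophil markers, has the highest Il1b and Nlrp3, while day 7 graft 5 lies at 8.73 CPM Il1b with 365 CPM of neutrophil markers.

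Between the graft times, 0 of the 10 members were called, and 0 had an unadjusted p under 0.05 in the limma-voom fit or were called with limma-trend on log2(CPM + 1). Among all tested genes 3.18% were called higher and 1.71% lower on day 7 than on day 3, and 4.56% and 3.32% had groups that did not overlap upward and downward, against 0 members. The members' median change was 0.13, against 0.02 over all genes. Il1rn came closest, at 0.80 ± 0.39 (adjusted p = 0.258). It was called in 1 alternative, chosen after seeing the data, that left out control 5 and day 7 graft 5 (1.07, adjusted p = 0.0391). Il1rl1 was -0.48 ± 0.69 (adjusted p = 0.763) and Il18 was -0.31 ± 0.26 (adjusted p = 0.562).

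Levels per length showed which family members predominated. In controls, Il1r2 had the highest median (26.7 TPM), then Il18 (19.4 TPM), Il33 (14.1 TPM) and Il1r1 (11.3 TPM), and the other 6 members had medians of 3.36 TPM or less; the ranges of all 9 neighbouring pairs in this order overlapped. On day 3 Il1b led with a median of 102 TPM, followed by Il1rl1 (84.0 TPM), Il33 (78.3 TPM) and Il1rn (60.4 TPM). The ranges did not overlap between Il1r2 (27.9 TPM) and Il1rap (10.9 TPM), nor between Nlrp3 (7.72 TPM) and Il1a (2.07 TPM). On day 7 Il1rn had the highest median (117 TPM), followed by Il33 (84.2 TPM), Il1r1 (62.6 TPM) and Il1b (61.5 TPM). By mean, Il1b (159 TPM) stood above Il1rn (126 TPM) on day 7. Only Il18 (48.4 TPM) and Il1rap (11.04 TPM) were neighbours without overlap, and Il1a was last (1.82 TPM).

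The remaining family genes moved in different directions. Of 5 other ligands, 1 passed the filter: Il1f9, which encodes IL-36 gamma, was 0 to 1.26 CPM in controls, 2.38 to 12.2 CPM on day 3 and 4.4005 to 41.9 CPM on day 7. It rose by 4.68 ± 1.27 (adjusted p = 0.00545) and 5.30 ± 1.25 (adjusted p = 0.00206), with every graft above every control. Its control median was 0.21 CPM, below the filter at 0.389 CPM, so it passed the filter through its graft levels. Among ligands this low in controls the filter itself favoured a rise. Of 7 other receptors and binding proteins, 5 were tested, and 1 rose and 2 fell on each day. Among all tested genes 30.1% were called higher and 30.3% lower on day 3, and 32.2% and 28.4% on day 7. With only 5 genes these counts do not set the list apart from those shares. Il1rl2, the IL-36 receptor, rose from 45.3 ± 25.7 CPM (SD, n = 5) to 99.0 ± 26.7 and 82.5 ± 27.9 CPM. Il18r1, the ligand-binding chain of the IL-18 receptor, fell from 19.4 ± 8.83 CPM to 1.93 ± 1.06 and 4.00 ± 0.37 CPM (adjusted p = 1.38e-05 and 0.000139). Of 9 tested T and NK cell markers 7 fell on both days, and the median of their sum was 461 CPM in controls, 14.1 CPM on day 3 and 32.7 CPM on day 7. All 7 tested B cell markers fell on both days, and the median of their sum was 1206, 6.96 and 10.3 CPM. The part of lymphocytes in the Il18r1 values was not tested. Sigirr, an inhibitory receptor, fell from 16.1 ± 7.17 CPM to 6.26 ± 2.90 and 4.69 ± 1.06 CPM. Its day 3 call was lost with scaling by library totals and on the TPM scale. Il18bp, the soluble inhibitor of IL-18, was 16.4 ± 3.22, 19.8 ± 5.72 and 14.8 ± 1.14 CPM and was not called.

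A cluster of 6 receptor genes on chromosome 1 held all of these directions. Over 478 kb of mm10, from 40074079 to 40551705 and all on the forward strand, it holds Il1r2, Il1r1, Il1rl2, Il1rl1, Il18r1 and Il18rap in that order, with no other protein-coding gene. Il1r1, Il1rl2 and Il1rl1 rose, Il18r1 fell, and Il1r2 and Il18rap (0.19 ± 0.50 and 0.79 ± 0.48) were not called. Il1rl1 had the largest rise of the 6 on both days, and only 136 bases separate its end from the start of Il18r1. A second cluster, on chromosome 2 from 24153161 to 24351494, holds Il1f8, Il1f9, Il1f6, Il1f5, Il1f10 and Il1rn. Of these Il1f9 and Il1rn rose and the other 4 did not pass the filter, which Il1f9 passed through its graft levels.

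**Figure D5:**
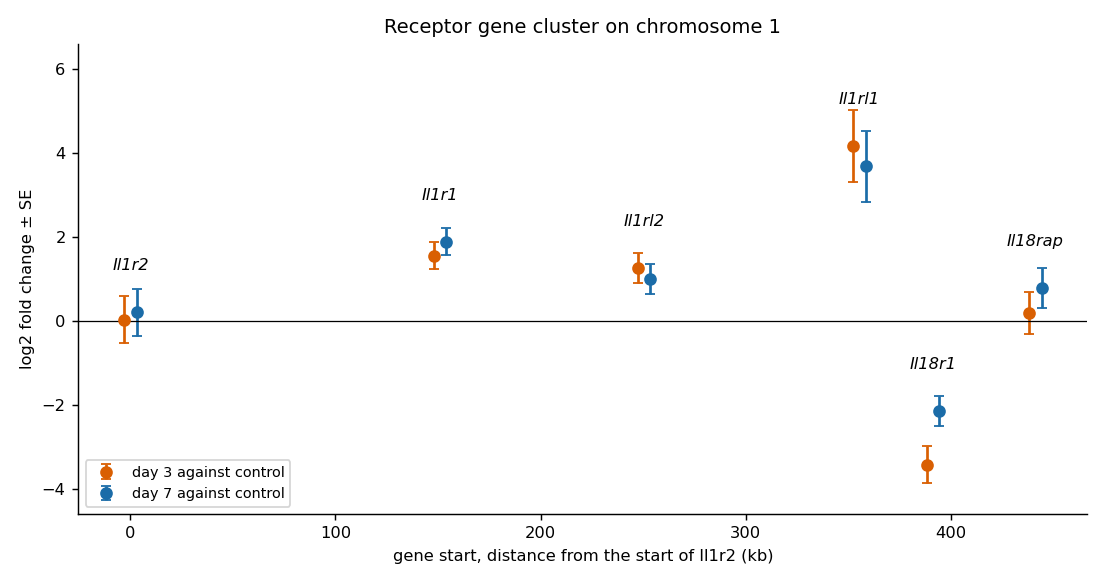
Log2 fold change ± SE against control on day 3 and day 7 for the 6 receptor genes of the chromosome 1 cluster, placed by the distance of each gene start from that of Il1r2. Il1rl1 lies at 4.16 and 3.69, its neighbour Il18r1 at -3.43 and -2.15.

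Inflammasome genes other than Nlrp3 were taken from lists of sensors and of assembly and effector genes. Of 11 tested sensors, 7 rose on each day and 0 fell, where 30.1% and 32.2% of all tested genes were called higher. Without controls 2 and 4, 6 rose and 1 fell on each day, and Nlrp12 was not called. Nlrp1b rose from 3.93 ± 0.69 CPM (SD, n = 5) to 17.8 ± 4.83 and 21.8 ± 3.69 CPM, and Mefv, which encodes pyrin, from 6.89 ± 6.26 to 30.6 ± 11.5 and 36.03 ± 18.7 CPM. Nlrp1a rose by 3.07 and 3.13 and Nlrp12 by 3.29 and 4.19, both from below 1 CPM on average. Nlrp12, with a control median of 0.105 CPM, passed the filter through its graft levels, and its day 3 call was lost on the TPM scale. Naip2, Naip5 and Naip6, sensors of bacterial flagellin and secretion systems, were also called higher, and as near-identical neighbours, like the Nlrp1 pair, they may share reads. Nlrc4 and Aim2 were not called on either day. Of 11 tested assembly and effector genes, 8 rose and 0 fell on day 3, and 9 rose and 1 fell (Txnip) on day 7. Without controls 2 and 4, 7 rose and 0 fell on day 3, and 8 rose and 0 fell on day 7. Txnip on day 7 also lost its call on the TPM scale, and its controls ran from 592 to 2479 CPM (median 728).

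Pycard, which encodes the adaptor ASC, rose from 26.0 ± 11.6 CPM to 51.8 ± 10.7 and 52.5 ± 19.1 CPM. Without controls 2 and 4 Pycard lost its call on both days. Casp1, the protease that cuts IL-1 beta and IL-18, rose from 27.0 ± 5.92 to 64.5 ± 19.5 and 55.2 ± 3.71 CPM. Casp4, the sensor of cytosolic lipopolysaccharide, rose by 1.71 ± 0.23 and 1.06 ± 0.23. Gsdmd, which encodes the pore-forming gasdermin D, rose by 0.86 ± 0.21 and 0.74 ± 0.21, and its day 3 call was lost on the TPM scale. Ninj1, which acts in membrane rupture, rose by 2.06 and 2.13, and P2rx7, the ATP-gated channel upstream of NLRP3, by 1.35 and 1.72. These changes were smaller than those of Il1b, Il1rn and Nlrp3, but the difference between genes was not tested.

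Of 8 tested proteases that process IL-1 family ligands, 2 rose and 2 fell on day 3, and 2 rose and 4 fell on day 7. Among all tested genes 30.1% were called higher and 30.3% lower on day 3, and 32.2% and 28.4% on day 7, so the day 3 counts were near those shares. Ctsc, which activates serine proteases of granules, rose from 218 ± 72.2 CPM to 731 ± 270.0 and 649 ± 146 CPM, and Capn2, a calpain, rose by 1.26 and 0.90. Mcpt4, a mast cell chymase, fell from 16.2 ± 3.78 CPM to 5.56 ± 3.91 and 4.87 ± 3.71 CPM, and Prtn3, a neutrophil granule protease, was 0.03 ± 0.36 on day 3 and fell by 2.00 on day 7. Of 18 genes of signalling from the IL-1 receptor, 5 rose and 5 fell on each day, where 30.1% of all tested genes were called higher and 30.3% lower on day 3, and 32.2% and 28.4% on day 7. On the TPM scale 6 rose and 1 fell on day 3, and 9 rose and 2 fell on day 7. Myd88, the adaptor, rose by 1.17 and 0.70, and Irak3, an inhibitory kinase of the pathway, by 1.44 and 0.94. Peli1, a ubiquitin ligase, fell by 0.80 and 1.02 and Tab3, a TAK1 partner, by 0.81 and 0.98 on the log2 scale. The day 3 call of Peli1 was lost on the TPM scale.

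Of 17 target and feedback genes of NF-kB, 10 rose on day 3 and 8 on day 7, and 0 fell against control. Among all tested genes 30.1% and 32.2% were called higher on these days, and 30.3% and 28.4% lower. Without controls 2 and 4, 7 rose and 2 fell on day 3, and 5 rose and 3 fell on day 7. Cxcl2, a neutrophil chemokine, rose from 0.597 ± 0.814 CPM to 62.6 ± 26.8 and 66.4 ± 69.7 CPM. Saa3, an acute phase gene, rose by 5.80 and 5.48. Between the graft times, where none of the 10 members was called, 3 of these 17 genes fell from day 3 to day 7: Il6 (32.9 ± 22.1 to 7.02 ± 2.20 CPM, adjusted p = 0.0417), Ccl2 (427 ± 48.8 to 165 ± 27.2 CPM, adjusted p = 0.0327) and Cxcl1 (66.8 ± 36.5 to 13.7 ± 5.01 CPM, adjusted p = 0.0143). Among all tested genes 1.71% were called lower on day 7 than on day 3. On the TPM scale 2 of the 17 were called lower, and Ccl2 was not called. These genes answer to many signals other than IL-1.

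Genes with the most similar pattern were sought for 6 members by Pearson correlation of log2(CPM + 1) over the 15 libraries, among 10641 genes with at least 10 CPM on average in 1 group. The coefficients describe libraries that share the difference between control and graft, so they were also computed after removing the group means. Il1b was closest to Acod1, the itaconate-making enzyme of activated myeloid cells (r = 0.97, and 0.95 after removing group means), then to Pilra and Csf3r, or to Hdc and Pilra within groups. Nlrp3 was closest to Trem1, Rnf149 and Csf3r (r = 0.98 for each), and within groups to Rnf149, Trem1 and Cxcl3. Il33 was closest to Sphk1, a sphingosine kinase, by both measures (r = 0.96 and 0.95), followed by Agfg1 and Sdc4, or by Il13ra1 and Ptx3 within groups. Il1rl1 was closest to Ms4a4a, Mmp19 and Frmd4b (r = 0.97, 0.97 and 0.96), and within groups to Bcat1, Itga5 and Mmp19. Il1rn was closest to Jpt2, Cks2 and Gas2l3 (r = 0.98 for each), and within groups to Lst1, Prim2 and Tyms (r = 0.92, 0.90 and 0.90). Il1r2 was closest to Pde7b, Cd302 and Crem (r = 0.79, 0.77 and 0.75), and within groups to Irak3, Ccr1 and Eapp (r = 0.89, 0.88 and 0.87), of which Irak3 and Ccr1 gave only 0.48 and 0.37 over all libraries.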

How the data were processed

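The members and gene lists were chosen with earlier results of these data known. Stranded mRNA libraries gave paired 151 bp reads (per the labels' protocols). Tools listed in the submitters' processing notes, with no role stated, are RSEM 1.3.1, STAR 2.7.1a and cutadapt 2.8, and the build is mm10. The authors deposited, per the file headers, estimated counts, TPM and RPKM per gene in 15 samples. The deposited estimated counts are whole numbers printed with digit separators; no count model was used. The deposited RPKM values, which the authors scaled by length and depth, entered no test. The deposited TPM values served for levels per length and for alternatives.

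Genes with at least 0.389 CPM in at least 5 libraries and 15 counts in all were scaled by TMM (factors 0.746 to 1.14) and fitted with limma-voom (limma 3.58.1, R 4.3.3), 1 mean per group, with Benjamini-Hochberg adjustment over 16051 genes. CPM values use the scaled library sizes. The fit was tested on simulated data. Log2 ratios of CPM + 0.5 were compared by exact permutation over 252 regroupings. Beyond the 10 members, named pathway genes were up to 4 called genes per list with the largest change, plus 6 named whatever their values (Pycard, Casp1, Casp4, Gsdmd, Myd88 and Il18bp); Naip2, Naip5, Naip6, Nlrc4, Aim2, Txnip, Il18rap and Cxcl1 were named after their values were seen. Lists were also refitted with other scalings and without controls 2 and 4 or control 5 and day 7 graft 5, chosen after seeing the data. Alternatives changed the scaling, filter, test, samples or pseudocount.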

Additional observations from a re-analysis of the deposited data

Results flagged for a closer look

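Single libraries stood apart from the other 4 of their group in 11 of 39 groups of values checked, by Dixon's test at a critical value of 0.71. Chance flags about 1 in 20 groups only where groups are independent and values normally distributed. All 11 were groups of CPM not put on a log scale, and the same libraries recur, so the 11 cannot be set against that rate. Control 5 accounted for several of the 11, in Il1b (24.8 CPM, others 1.57 to 4.08), Il18 (25.8 CPM, others 7.89 to 11.5), Il33 (200.5 CPM, others 15.6 to 33.1), Il1rn (18.0 CPM, others 1.77 to 6.33), Il1r1 (135 CPM, others 33.9 to 52.0), Il1rl1 (144 CPM, others 3.04 to 8.12) and Nlrp3 (4.74 CPM, others 1.51 to 2.02).

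Day 7 graft 5 stood apart in Il33 (519.9 CPM, others 93.7 to 128) and Il1rl1 (434 CPM, others 58.6 to 131). Day 7 graft 1 stood apart in Il1a (28.1 CPM, others 1.51 to 6.75), and day 3 graft 1 in Il18 (40.0 CPM, others 16.2 to 21.8).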

How the results depend on the processing

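Il1rn, Il1r1, Il1rap, Il1rl1 and Nlrp3 kept their direction and call against control on both days under all 28 alternatives. Without controls 2 and 4, 5 members were called on day 3 and 5 on day 7. Leaving out 1 library gave 8 members called on day 3, 7 to 8 on day 7 and 0 between graft times. Il18 on day 7 was also called on the TPM scale (1.00, adjusted p = 0.0106), without control 5, and in a fit weighted by library quality (0.72, adjusted p = 0.0154). The members called between graft times became 1 without control 5 and day 7 graft 5, an alternative chosen after seeing the data. Genes called between graft times, 784 in all, numbered 3668 with quality weights, 1541 without day 3 graft 1 and day 7 graft 5, 1438 without controls 2 and 4, 1734 without control 5 and day 7 graft 5, 1395 with only the 2 groups fitted, and 323 to 1563 without 1 library; the cause was not tested.

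Among the members, the direction turned only in changes that were not called. Il1r2 on day 3 was -0.055 with upper quartile scaling, -0.022 with the replicate block, -0.014 without day 3 graft 1 and day 7 graft 5, and -0.33 to 0.35 without 1 library; on day 7 it was -0.027 and -0.16 to 0.53 in the latter cases. Il1a on day 3 was -0.068 with the replicate block, -0.84 without controls 2 and 4, and -0.46 to 0.51 without 1 library. Between graft times, quality weights gave Il33 -0.16, Il1r2 -0.12 and Nlrp3 -0.0075; leaving out day 3 graft 1 and day 7 graft 5 gave Il33 -0.27 and Il1r2 -0.013; leaving out control 5 and day 7 graft 5 gave Il33 -0.32 and Il1r2 -0.069. Without 1 library these changes were -0.33 to 0.45 for Il33, -0.086 to 0.49 for Il1r2, -0.18 to 0.36 for Nlrp3, -0.60 to 0.70 for Il1b and -0.067 to 0.28 for Il1rap. The log2 ratio of Il1rn to Il1b on day 3 ran from -0.34 to 0.11, and that of Il1r2 to Il1r1 between graft times from -0.43 to 0.10.

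Correlations of same-numbered libraries ran from -0.18 to 0.34, so the numbers were not taken as pairs. With the replicate block 8, 7 and 0 members and 9726, 9725 and 659 genes were called. For the ratios, permutation within same-numbered libraries allows too few regroupings for any p to pass the threshold, even before adjustment. That setting therefore could not decide whether a ratio differed (for Il1r2 to Il1r1 on day 3, -1.51 with permutation adjusted p = 0.281). Across 4 scalings, called genes of the pathway lists kept their direction except 1, Ikbkb on day 7 on the TPM scale. Some lost their call. On day 3 these included Sigirr, Irak1 and Chuk with library totals and on the TPM scale, and Nlrp12, Gsdmd, Peli1 and Peli2 on the TPM scale. On day 7 they included Txnip on the TPM scale. Il1a is limited by depth, with 11 counts in its lowest library.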
